A study of Mus musculus with 3 samples.

Results

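Among the fibroblasts of mouse femoral arteries, 947 cells were set apart by a shared set of matrix genes, Cthrc1, Aspn, C1qtnf3 and Tnn, and 934 of them came from arteries taken 7 days after wire injury. Fibroblasts were taken as barcodes with at least 1000 unique molecular identifiers (UMIs, each 1 captured mRNA molecule), at least 300 genes and at most 15% mitochondrial UMIs. They also had to hold at least 5 of the 8 fibroblast genes Pdgfra, Dcn, Lum, Col1a1, Col1a2, Dpt, Clec3b and Serpinf1, and at most 1 UMI each of the leukocyte gene Ptprc and the endothelial gene Pecam1. Of 28139 barcodes kept in all, 5479 passed this fibroblast gate. The matrix fibroblasts were those with at least 2 of the 4 genes Cthrc1, Aspn, C1qtnf3 and Tnn (set C), and more of them than of any of 4 other sets. Set A was Pi16, Dpp4, Opcml and Pcsk6, and set B was Inmt, Penk, C7 and Dpep1. Set D was Cxcl14, Cxcl5, Mmp3 and Cilp, and set E was Chl1, Sned1, Sdk1 and Lbp. The sets had been read from these same cells, so differences in the genes of the sets describe the choice of cells, and every contrast below between matrix fibroblasts and other cells is a description without a test.

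The samples were 3 single-cell RNA-seq libraries, 1 per group, each pooled from live sorted singlets of 6 wild-type (WT) mice. The mice were male, 8 weeks old, and carried either a sham operation (Sham) or a wire injury of the femoral artery (FAI) 2 days (D2) or 7 days (D7) earlier. The time at which the sham arteries were taken was not given in the sources used here. With 1 pooled library per group, a difference between libraries cannot be told apart from a difference between pools, sorts or captures, and every interval below is a 95% interval that covers counting error only.

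Cthrc1 encodes a secreted glycoprotein of repairing tissue and is widely used as a marker of matrix-producing fibroblasts in injured organs. Aspn encodes asporin, a small leucine-rich proteoglycan that binds collagen and TGF-beta. C1qtnf3 encodes a secreted protein of the C1q and TNF superfamily, and Tnn encodes tenascin-N (tenascin-W), a tenascin of developing bone and of tumour stroma. After arterial injury, fibroblasts of the adventitia are known to proliferate and to lay down collagen around and within the vessel wall.

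The bases upstream of the transcription start are shown for the set C genes with an entry in the RefSeq table, Aspn, C1qtnf3 and Tnn, and for Fmod, the gene with the largest excess in the matrix fibroblasts among those named by ratio. Each run holds the 250 bases before the start in build GRCm38.p6, read 5′ to 3′ on the strand of the gene. The windows were chr13:49544193-49544442 on the plus strand for Aspn, chr15:10952082-10952331 on the plus strand for C1qtnf3, chr1:160153576-160153825 on the minus strand for Tnn and chr1:134037004-134037253 on the plus strand for Fmod. Capitals mark every match, on either strand, to TATAAA (the TATA box), GGAATG (bound by TEAD factors), CAGACA (bound by SMAD factors) and TGANTCA (bound by AP-1), and no matches overlapped.
Aspn: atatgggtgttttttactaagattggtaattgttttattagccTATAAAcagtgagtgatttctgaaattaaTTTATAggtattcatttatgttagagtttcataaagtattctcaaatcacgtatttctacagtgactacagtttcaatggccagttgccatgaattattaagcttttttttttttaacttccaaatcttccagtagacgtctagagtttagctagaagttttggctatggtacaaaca
C1qtnf3: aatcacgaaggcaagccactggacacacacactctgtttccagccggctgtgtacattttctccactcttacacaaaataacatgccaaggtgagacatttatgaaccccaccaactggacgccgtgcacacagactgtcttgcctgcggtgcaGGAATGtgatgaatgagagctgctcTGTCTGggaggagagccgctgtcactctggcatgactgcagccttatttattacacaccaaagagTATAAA
Tnn: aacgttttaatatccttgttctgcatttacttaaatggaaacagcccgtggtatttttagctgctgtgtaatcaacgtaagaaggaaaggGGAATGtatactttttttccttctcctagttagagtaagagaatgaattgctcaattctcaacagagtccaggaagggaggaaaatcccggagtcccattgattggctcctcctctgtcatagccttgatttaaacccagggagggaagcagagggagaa
Fmod: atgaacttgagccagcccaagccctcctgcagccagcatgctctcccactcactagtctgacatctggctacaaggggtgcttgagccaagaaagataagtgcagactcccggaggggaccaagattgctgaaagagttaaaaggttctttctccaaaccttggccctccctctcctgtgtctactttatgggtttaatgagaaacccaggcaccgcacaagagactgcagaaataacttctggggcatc
The TATA motif lay at the last 6 bases before the start of C1qtnf3, and 2 copies lay further up in Aspn, on opposite strands. GGAATG was found once each in C1qtnf3 and Tnn, CAGACA once in C1qtnf3, and the Fmod window held none of the 4 motifs. Among 32851 windows of the same length in the table, 12.4% held TATAAA, 12.6% held GGAATG, 17.1% held CAGACA and 6.75% held TGANTCA. These matches describe letters in the windows and were not tested as binding sites.

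Matrix fibroblasts made up 6 of 2503 gated fibroblasts in the Sham library (0.240%, exact Clopper-Pearson interval 0.0880% to 0.521%). The D2 library had 7 such cells among 101 (6.93%, interval 2.83% to 13.8%). The D7 library had 934 among 2875 (32.5%, interval 30.8% to 34.2%). The 3 intervals did not overlap, but with 1 library per group the order has no replicate check. At D2 only 101 of 11191 kept barcodes passed the fibroblast gate, so that share rests on few cells. Depth also differed, with a median of 5007 UMIs per gated fibroblast in Sham, 8653 at D2 and 12120 at D7. When every barcode was reduced at random to 2000 UMIs before the rule was applied, the shares were 0.383% (7 of 1830), 4.69% (3 of 64) and 33.7% (908 of 2694).

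**Figure D1:**
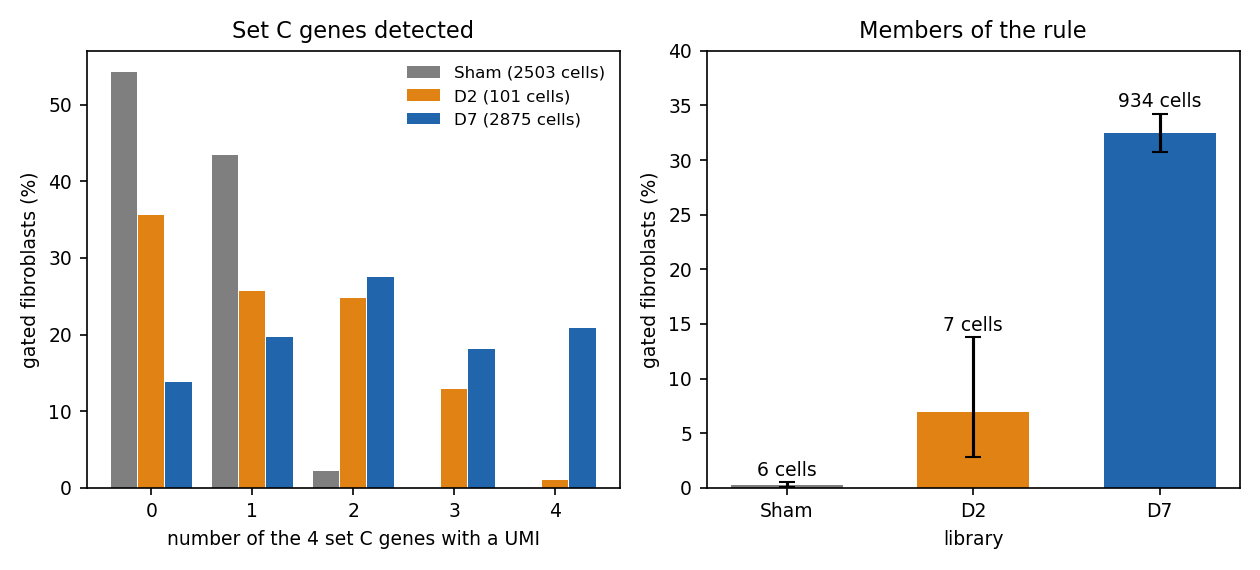
Left, the percentage of gated fibroblasts in which 0, 1, 2, 3 or 4 of the set C genes had a UMI, for the Sham, D2 and D7 libraries. Right, the percentage that met the rule, with exact 95% intervals for counting error: 6 cells in Sham, 7 at D2 and 934 at D7.

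The number of set C genes per fibroblast separated the libraries in the same order. In Sham no gated fibroblast held 3 or 4 of the genes and 55 held 2. At D2, 13 of the 101 held 3 and 1 held all 4. At D7, 522 held 3 and 598 held all 4, of which 272 and 528 met the rule. A further 602 D7 fibroblasts held at least 2 set C genes but tied with another set, and 375 held more of another set. The D7 matrix fibroblasts themselves also carried genes of the other sets: 77.8% had a UMI of set D, 87.2% of set E, 52.6% of set A and 41.0% of set B.

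Among the 934 D7 cells, 528 (56.5%) held all 4 genes, 186 held Cthrc1, Aspn and C1qtnf3 without Tnn, 120 held only Cthrc1 and Aspn, and 81 held Cthrc1, Aspn and Tnn. Just inside the threshold, the 134 cells with 2 set C genes had 537 CPM of Cthrc1 and 640.0 CPM of Aspn, where CPM, a normalised level, is the UMIs of a gene summed over the cells of a group and scaled to a fixed total of UMIs for each group. Just outside it, the 602 tied cells had 769 CPM of Cthrc1 and 986 CPM of Aspn, and the 238 cells with 1 set C gene and no other set had 116 CPM and 338 CPM. The tied cells thus had more of both genes than the cells with 2 genes that met the rule, but the 2 groups were cut unlike. Of the tied cells, 329 held 2 set C genes, 203 held 3 and 70 held all 4. They were also deeper, with a median of 14076.5 UMIs per cell against 8167.5. The part of gene number and depth in these levels was not tested.

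Cthrc1 (chromosome 15, 39076932 to 39087121, plus strand, GRCm38) was nearly absent from uninjured fibroblasts. Its level was 2.46 CPM in gated Sham cells, 535 CPM in gated D2 cells, 483 CPM in the other gated D7 cells and 1247 CPM (1229 to 1265) in the D7 matrix fibroblasts. A Cthrc1 UMI was found in 0.840% of gated Sham cells and in 98.8% of the matrix fibroblasts. The D2 fibroblasts as a whole were thus already far above Sham for this gene.

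Aspn (chromosome 13, 49544443 to 49567565, plus strand) was not confined to injury. Gated Sham fibroblasts had 312 CPM, with a UMI in 43.8% of cells, gated D2 cells had 150.04 CPM and the D7 matrix fibroblasts had 1832 CPM (1810 to 1853). The D2 fibroblasts thus stood below the Sham level of Aspn, while the D7 matrix fibroblasts stood far above it.

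C1qtnf3 (chromosome 15, 10952332 to 10980150, plus strand) had 8.23 CPM in gated Sham cells, 6.82 CPM at D2, 71.7 CPM in the other gated D7 cells and 441 CPM (430.5 to 452) in the matrix fibroblasts. Tnn (chromosome 1, 160085029 to 160153580, minus strand) had 0.133 CPM in gated Sham cells, from 2 UMIs, 75.02 CPM at D2, 42.2 CPM in the other D7 cells and 268 CPM (260 to 277) in the matrix fibroblasts. At D2, 59 of the 132 Tnn UMIs lay in 1 cell, and without it the level was 42.4 CPM. Of the 12 C1qtnf3 UMIs at D2, 7 lay in 1 cell, and the level without it was 2.91 CPM. Cthrc1 was found in 59 of the 101 gated D2 cells and Tnn in 16. At D7 the matrix fibroblasts held 15.03% of all UMIs of the library but 57.6% of its Cthrc1 UMIs, 59.6% of Aspn, 72.9% of C1qtnf3 and 73.1% of Tnn.

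To give each gene a value that its own detection did not choose, D7 cells were picked by the other 3 genes of the set. Cells picked without Cthrc1 had 1496 CPM of Cthrc1, against 644 CPM in all other gated cells, a ratio of 2.32 (2.26 to 2.38). The ratio was 2.82 (2.76 to 2.88) for Aspn, 2.70 (2.59 to 2.82) for C1qtnf3 and 2.96 (2.79 to 3.13) for Tnn. Each gene was thus more than 2-fold higher in cells picked by the other genes of its set. These cells came from the data in which the sets were found, so the ratios are not independent of that choice.

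The 7 cells that met the rule at D2 were uneven. The 5 deepest had 20936 to 68818 UMIs each and between 13 and 55 Cthrc1 UMIs. One held 59 Tnn UMIs with 3 of Aspn, another held 43 Aspn UMIs and none of Tnn, and 1 cell had 91 Tnc UMIs. In the 6 Sham cells the 4 genes gave between 1 and 7 UMIs each where detected, Cthrc1 was found in 2 of them and Tnn in none. With so few cells, no gene contrast was made within D2 or Sham, and values from them are given only side by side.

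**Figure D2:**
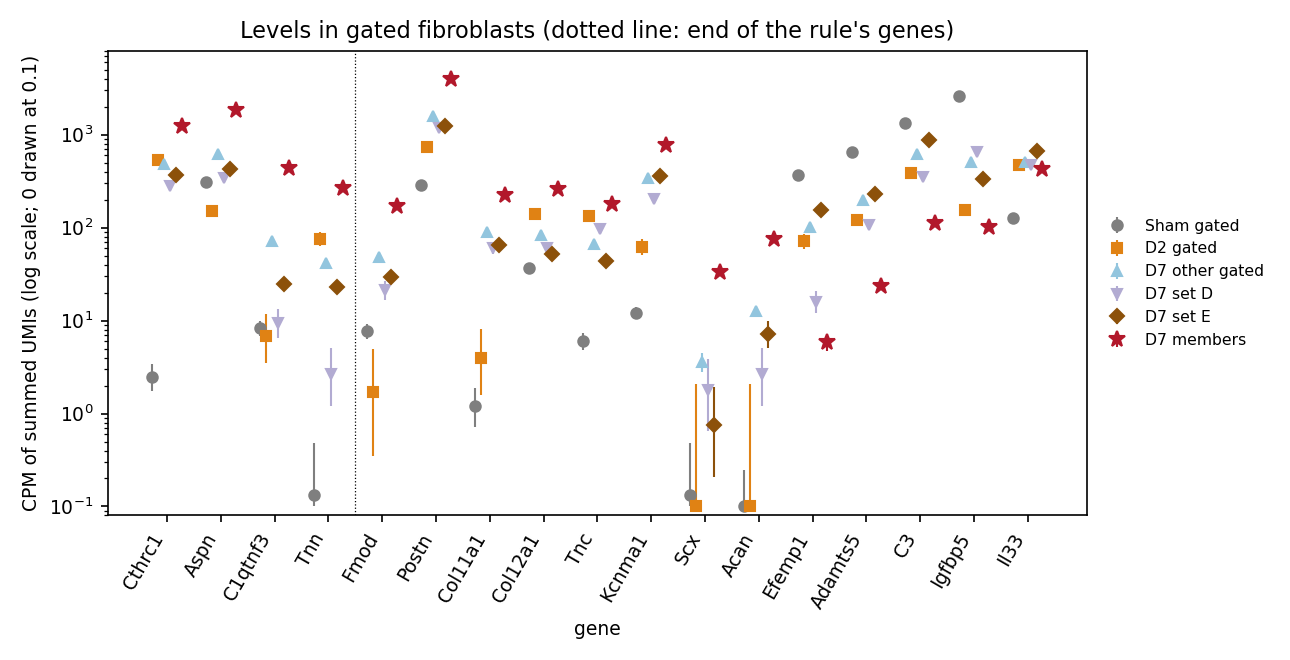
Level of each gene in CPM of summed UMIs on a log axis, in gated Sham and D2 fibroblasts and in 4 groups of D7 fibroblasts, with exact Poisson 95% intervals for counting error and levels of 0 drawn at 0.1 CPM. Sets D and E are part of the other gated D7 cells. The matrix fibroblasts (stars) are highest for the 12 genes from Cthrc1 to Acan and lowest for Efemp1, Adamts5, C3 and Igfbp5, while Il33 at D7 lies between 429 and 670 CPM in all groups shown.

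Against the other 1941 gated D7 fibroblasts, the matrix fibroblasts had higher levels of several fibrillar collagen, matricellular and tendon genes and lower levels of most progenitor and resting fibroblast genes. Fmod, which encodes the collagen-binding proteoglycan fibromodulin, was 172 CPM against 47.8 CPM, a ratio of 3.60 (3.34 to 3.87). Postn, encoding the matricellular protein periostin, was 3982 CPM against 1600 CPM (2.49-fold, 2.46 to 2.52). Efemp1, which encodes the fibulin-type glycoprotein EFEMP1, was 5.87 CPM against 103 CPM, 17.5-fold lower (14.1 to 21.9). Of 3373 genes tested, meaning genes that reached 50 CPM and 20 UMIs in whichever group was higher, 27 were at least 2-fold higher (0.800%) and 74 at least 2-fold lower (2.19%), on the scale of CPM plus 1. Genes of the rule were not left out of these counts or of those in the contrasts below. The 27 include the 4 set C genes, and the number of rule genes among the 74 is not given here. The matrix fibroblasts were deeper, with a median of 16262 UMIs per cell against 10277, and the part of depth in these differences was not tested.

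**Figure D3:**
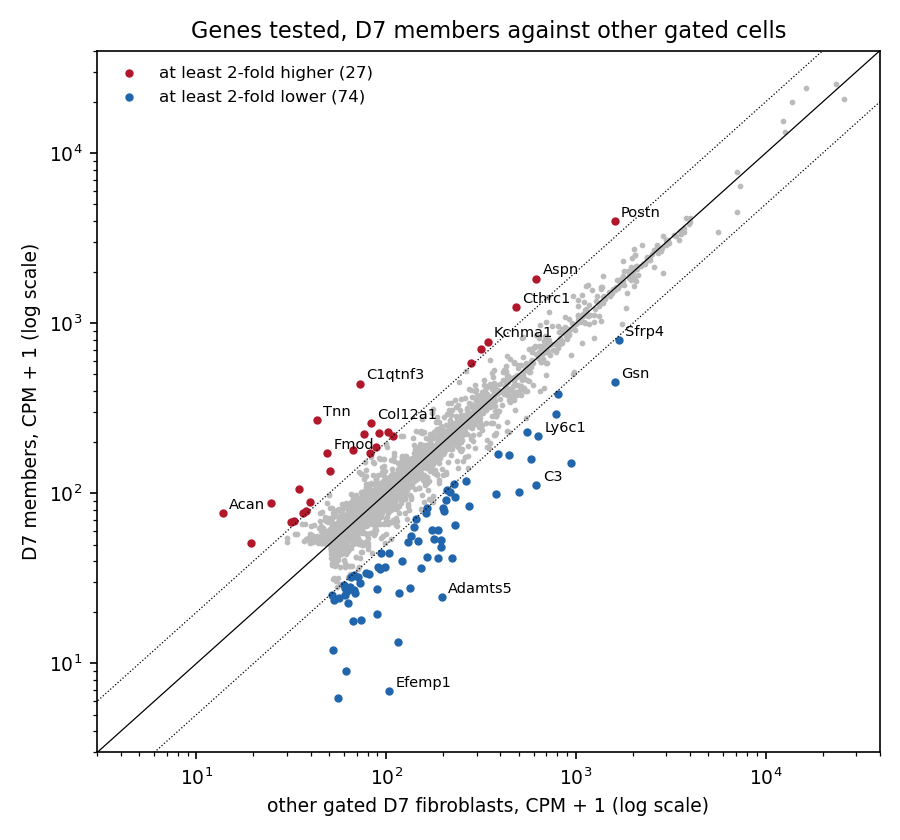
Each point is 1 of the 3373 genes tested, with its CPM plus 1 in the other gated D7 fibroblasts on the x axis and in the matrix fibroblasts on the y axis, both log. Solid and dotted lines mark equality and 2-fold. The 27 higher genes include the 4 that chose the cells, and the 74 lower genes include Efemp1, Adamts5, C3 and Gsn.

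Genes were then counted by list, at a limit of 1.5-fold. A gene that reached the floor of 20 CPM in 1 group only could be higher in that group alone. The counts below are thus of list genes that reached it in both groups, a restriction added after the data were seen. Of 9 fibrillar and associated collagens, 4 were at least 1.5-fold higher and none lower, with a median log2 ratio of 0.56. Over all 6414 genes with at least 20 CPM in either group, 2.15% were that much higher, 4.41% that much lower, and the median was -0.03. Unlike the list counts, these shares and those over all genes below include genes that reached the floor in 1 group only. Shares at the filter of the list counts were not computed. Col12a1, whose product decorates collagen fibrils, was 258 CPM against 82.6 CPM (3.12-fold, 2.95 to 3.31). Col11a1, which helps to nucleate fibrils, was 225 CPM against 90.4 CPM (2.49-fold, 2.35 to 2.63), with 1.19 CPM in gated Sham cells. Col3a1, a main fibrillar collagen, differed little within D7, at 25370 CPM against 23576 CPM.

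Some basement membrane collagens were lower. Col15a1, a basement membrane zone collagen, was 47.4 CPM against 194 CPM, and Col4a1, a chain of collagen IV, was 60.2 CPM against 186 CPM. In matrix fibroblasts with 2, 3 and 4 set C genes, Col15a1 was 209, 83.1 and 13.1 CPM and Col4a1 379, 60.2 and 17.9 CPM. Those with 2 genes were thus not below the other gated D7 cells for either collagen. Of 8 collagens outside the fibrillar list, 3 were at least 1.5-fold lower and none higher, and Col6a1 and Col8a1 were 965 and 229 CPM against 804 and 158 CPM. Enzymes that modify or crosslink collagen were mostly similar: none of 21 was 1.5-fold higher and 1, Pcolce2, was lower. The lysyl hydroxylase gene Plod2 was 533 CPM against 369 CPM, and 53.8 CPM in gated Sham cells.

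Among 18 matricellular genes, 7 were at least 1.5-fold higher and 2 lower. Tnc, encoding tenascin-C, was 178 CPM against 66.2 CPM, with the upper 50% of its UMIs in 28 cells, and Thbs2, encoding thrombospondin-2, was 449 CPM against 242 CPM. Ccn4, a Wnt-responsive CCN protein gene, was 132 CPM against 70.7 CPM and 1.19 CPM in gated Sham cells. Lower genes were Sparcl1, which reached the floor in the other cells only, Spp1 and Tnxb, at 18.5, 157 and 52.1 CPM against 88.9, 580.1 and 193 CPM. For Spp1, 10 cells held 94.9% of the UMIs found in the matrix fibroblasts.

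Of 23 tendon, cartilage and bone genes, 4 reached the floor in both groups (Thbs4, Fmod, Comp and Sox9), and 3 of these were at least 1.5-fold higher and none lower. Scx and Acan reached it in the matrix fibroblasts only, so their values are a description. Scx, the scleraxis transcription factor gene of tendon progenitors, was 33.4 CPM against 3.56 CPM (9.38-fold, 7.35 to 12.1), with 2 UMIs in all gated Sham cells and none at D2. Acan, encoding the cartilage proteoglycan aggrecan, was 75.5 CPM against 12.8 CPM (5.91-fold, 5.17 to 6.78), with no UMI in gated Sham or D2 cells. Thbs4, encoding thrombospondin-4, was 87.0 CPM against 23.9 CPM, but 18 cells held the upper 50% of its UMIs. Comp, encoding cartilage oligomeric matrix protein, was 465 CPM against 326 CPM, and the lubricin gene Prg4 was lower, at 5.27 CPM against 54.7 CPM. Other tendon genes stayed low, with 104 UMIs of Tnmd and 56 of Mkx in all 934 cells.

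An Scx UMI was found in 200 of the 934 matrix fibroblasts (21.4%), and those cells differed from the remaining 734, a split chosen after the values were seen. Fmod was 317 CPM with Scx against 120 CPM without (2.65-fold, 2.45 to 2.86), Acan was 148 against 49.7 CPM (2.97-fold) and C1qtnf3 was 814 against 307 CPM (2.65-fold). Col11a1 was 410.4 CPM against 158 CPM (2.59-fold). Igfbp5, which encodes an insulin-like growth factor binding protein, was 15.2 CPM with Scx against 131 CPM without, and Il33 was 463 against 416 CPM. Cells with Scx were deeper, with a median of 19453 UMIs against 14802. Within cells of 5000 to 15000 UMIs, where 36 cells had Scx and 291 did not, Fmod was 360.1 CPM against 96.7 CPM (3.72-fold, 3.05 to 4.53), and Acan 131 against 33.9 CPM.

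Other genes high in the matrix fibroblasts were not matrix proteins. Ptn, encoding the growth factor pleiotrophin, was 105 CPM against 33.6 CPM, with a UMI in 24.9% of the matrix fibroblasts and the upper 50% of its UMIs in 23 cells. Ddah1, encoding an enzyme that degrades asymmetric dimethylarginine, was 221 CPM against 75.1 CPM. Kcnma1, encoding the pore subunit of the BK potassium channel, was 779 CPM against 342 CPM and 12.2 CPM in gated Sham cells. Slc24a3, encoding a sodium, calcium and potassium exchanger, was 134 CPM against 49.4 CPM. The angiopoietin-like genes Angptl1 and Angptl2 were 701 and 171 CPM against 317 and 81.3 CPM.

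Of the TGF-beta pathway, 4 of 21 measured genes were at least 1.5-fold higher and none lower. Among them were the ligand genes Tgfb2, at 162 CPM against 82.8 CPM, and Tgfb3, at 216 CPM against 119 CPM, and the activator gene Thbs1, at 173 CPM against 109 CPM. The receptor genes Tgfbr1 and Tgfbr2 were 49.4 and 259 CPM against 50.3 and 334 CPM. The BMP and activin list had 2 of 11 lower and none higher, and Inhba, an activin subunit gene that reached the floor in the other cells only, was 14.8 CPM against 49.3 CPM. In the Wnt list, Dkk3 was higher, at 194 CPM against 99.0 CPM, and Sfrp4, a secreted Frizzled-related protein gene, was lower, at 799 CPM against 1682 CPM.

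Of 13 contractile genes, 5 were at least 1.5-fold higher and none lower, including Acta2 at 217 CPM against 107 CPM and Tagln at 228 CPM against 101 CPM. Only 26.7% and 24.8% of the matrix fibroblasts had a UMI of these smooth muscle actin and transgelin genes, and 6 cells held the upper 50% of Acta2 UMIs. The summed markers of mural cells, which included Abcc9 and Kcnj8, were not higher, at 218 CPM against 232 CPM. However, 25 of the 934 cells had at least 3 of the remaining markers Myh11, Cnn1, Lmod1, Rgs5, Notch3, Mcam, Des and Cspg4, a limit chosen after seeing the data. Of all 2875 gated D7 cells, 55 did, these 25 among them. The 25 cells had 3344 CPM of Acta2 against 72.7 CPM in the other 909, and 2815 CPM of Tagln against 109 CPM. The direction for Tagln was not stable, with a log2 ratio of 1.17 in all cells, -0.13 with at least 3 set C genes required and -0.98 among cells of 5000 to 15000 UMIs. Without barcodes carrying 3 mural genes on both sides it was 1.00, and Fmod, Postn and Col12a1 were 1.82, 1.33 and 1.51. The median log2 ratio of the contractile list, 0.51 in all cells, was as low as -0.007 under the alternatives run.

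Genes of progenitor-type adventitial fibroblasts were mostly lower. Of 12, 10 were at least 1.5-fold lower and 1 higher. Sema3c, encoding a secreted semaphorin, was 40.9 CPM against 187 CPM, Cd55, encoding a complement regulator, was 35.4 CPM against 152 CPM, and Ackr3, encoding a chemokine-scavenging receptor, was 26.6 CPM against 133 CPM. Fndc1, a fibronectin domain gene, was the exception, at 610.05 CPM against 350.3 CPM. Of 16 resting fibroblast genes, 10 were lower and none higher: C3, the central complement component, was 111 CPM against 619 CPM, and Gsn, encoding the actin-severing protein gelsolin, was 448 CPM against 1613 CPM. Adamts5, encoding an aggrecan-cleaving protease, was 23.7 CPM against 196 CPM, 8.28-fold lower (7.43 to 9.26). Because sets A and B of the rule hold progenitor and resting fibroblast genes, lower progenitor and resting lists are close to what the choice of cells fixes.

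Of 18 cytokine and chemokine genes, 10 were at least 1.5-fold lower and none higher. The eosinophil attractant gene Ccl11 was 24.9 CPM against 116 CPM, Cxcl12, a stem cell and lymphocyte attractant gene, was 500 CPM against 970 CPM, and Ccl2, a monocyte attractant gene, was 262 CPM against 432 CPM. Cxcl1, a neutrophil attractant gene, was 1661 CPM against 1131 CPM, below the 1.5-fold limit. Macrophage and neutrophil markers were low and moved the same way, at 202 and 121 CPM summed against 354 and 220 CPM. Their part in the chemokine values was not tested.

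Il33, the alarmin cytokine gene named in the title of the study, was not higher in the matrix fibroblasts than in other D7 fibroblasts. It was 429 CPM (418 to 439) against 512 CPM, with 472 CPM in set D and 670 CPM in set E. Gated D2 fibroblasts had 477 CPM and gated Sham fibroblasts 128 CPM, so the D7 matrix fibroblasts stood 3.35-fold (3.19 to 3.53) above Sham. A UMI was found in 88.8% of the matrix fibroblasts and 78.2% of the other D7 fibroblasts. These shares were not taken at equal depth, since the median was 16262 UMIs per cell against 10277. The transcript was spread over cells, since 171 cells held the upper 50% of its UMIs. Il1rl1, encoding its receptor ST2, had 11 UMIs in 7 of the matrix fibroblasts.

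Of 21 transcription factor genes, the cartilage factor gene Sox9 was at least 1.5-fold higher and none was lower. Runx1, a runt-family factor gene, was 615 CPM against 450 CPM and 31.4 CPM in gated Sham cells. Cells with UMIs of both proliferation genes Mki67 and Top2a were few, at 8 of 934 (0.857%, 0.370% to 1.68%) against 15 of 1941 (0.773%), and 12 of 101 gated D2 fibroblasts (11.9%, 6.29% to 19.8%).

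**Figure D4:**
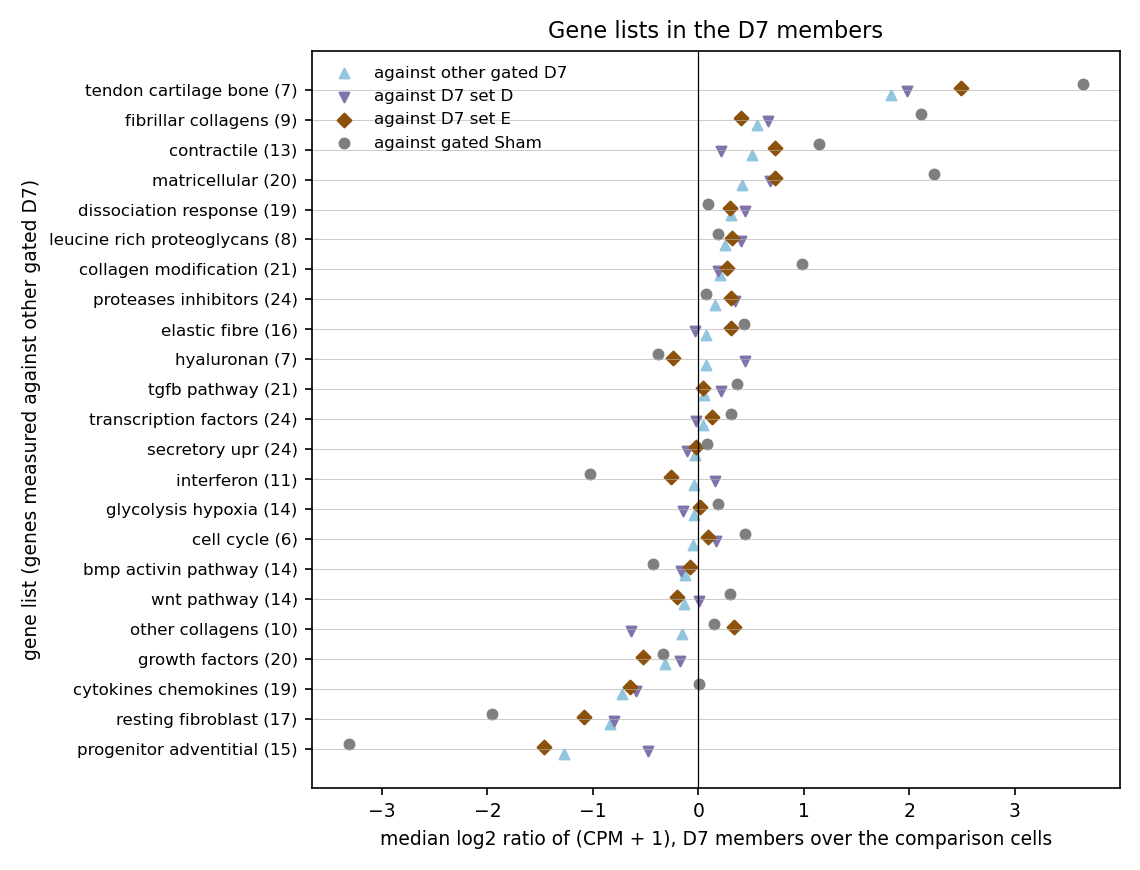
Median log2 ratio of CPM plus 1 over the genes of each of the 23 lists that reached 20 CPM in either group, for the D7 matrix fibroblasts over 4 groups of comparison cells. The tendon, cartilage and bone list lies furthest right in all 4 comparisons (1.82 to 3.65), but the floor partly fixes this place. Only 2 to 4 of its genes reached the floor in both groups, and others did so in the matrix fibroblasts only. The progenitor list lies furthest left in 3 of the comparisons.

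The D7 fibroblasts of set D, chosen by Cxcl14, Cxcl5, Mmp3 and Cilp, and those of set E, chosen by Chl1, Sned1, Sdk1 and Lbp, were the largest other D7 groups chosen by a set. Against the 334 set D cells, 75 of 3438 genes were at least 2-fold higher (2.18%) and 68 lower (1.98%). Gpx3, an extracellular glutathione peroxidase gene, was 1418 CPM against 316 CPM, and Fmod 172 CPM against 21.3 CPM. Inhba was 14.8 CPM against 197 CPM, and Col15a1 and Col4a1 were 47.4 and 60.2 CPM against 419 and 325 CPM. Matricellular genes were 1.5-fold higher for 10 and lower for 3 of 18, beside 5.26% and 5.83% of all genes.

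Against the 430 set E cells, 46 of 3430 genes were at least 2-fold higher (1.34%) and 125 lower (3.64%). Fmod, Col12a1 and Tnc were 172, 258 and 178 CPM against 29.8, 52.0 and 44.0 CPM. Tagln and Acta2 had the highest ratios, at 228 and 217 CPM against 30.0 and 36.2 CPM, and the 909 matrix fibroblasts with fewer than 3 mural genes had 109 and 72.7 CPM. Their log2 ratios, 2.89 and 2.55, were as low as 0.67 and 0.31 under the alternatives run. Efemp1 was 5.87 CPM against 156 CPM, Aldh1a2, a retinoic acid synthesis gene, 11.01 CPM against 100.4 CPM, and Hp, encoding haptoglobin, 17.0 CPM against 138 CPM. Of 12 progenitor genes, 10 were 1.5-fold lower and 1 higher, beside 6.42% and 3.53% of all genes.

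Against all 2503 gated Sham fibroblasts, the differences were larger and more numerous, with 329 of 3833 genes at least 2-fold higher (8.58%) and 488 lower (12.7%). Of 7 fibrillar collagens 6 were at least 1.5-fold higher and 1 lower, beside 13.9% and 21.0% of all genes. Postn was 3982 CPM against 290 CPM (13.7-fold, 13.3 to 14.2) and Col3a1 25370 CPM against 5881 CPM (4.31-fold, 4.28 to 4.35). Of 12 progenitor genes none was higher and 11 were lower, which is close to what the choice of cells fixes. Of the gated Sham cells, 24.9% met the rule for set A and 38.4% that for set B, which hold progenitor and resting fibroblast genes. Pi16, 14.99-fold lower, is itself a gene of set A, so its value describes the rule. Igfbp5, outside the progenitor list, was 101 CPM against 2600 CPM. Of 11 interferon genes, 7 were lower and none higher, but this was not particular to the matrix fibroblasts. The whole interferon list summed to 892 CPM in them, 1050 CPM in the other gated D7 cells and 1921 CPM in gated Sham cells. Gated Sham cells held 613 CPM of haemoglobin genes in sum against 338 CPM, and 98.1% of the Hbb-bs UMIs of the matrix fibroblasts lay in 10 cells.

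Against the 101 gated D2 fibroblasts, a comparison added after the data were seen, the matrix fibroblasts were higher for many elastic fibre genes and lower for many genes of protein secretion and glycolysis. For these lists the other gated D7 fibroblasts stood near the matrix fibroblasts, so the differences were not particular to the matrix fibroblasts. Summed elastic fibre genes were 6711 CPM in the matrix fibroblasts, 6681 CPM in the other gated D7 cells and 2825 CPM at D2. In the same order, protein secretion summed to 6634, 6830 and 11750 CPM, and glycolysis and hypoxia to 1770, 1740 and 4847 CPM. The cell cycle list summed to 992, 976 and 3757 CPM. Of 3699 genes, 287 were at least 2-fold higher (7.76%) and 294 lower (7.95%), and at 1.5-fold 15.2% were higher and 21.6% lower. Of 13 elastic fibre genes 9 were 1.5-fold higher and 1 lower: Mfap4, a microfibril-associated protein gene, was 973 CPM against 72.2 CPM (13.5-fold, 11.3 to 16.2). Postn was 5.40-fold higher (5.11 to 5.71), and Mdk, encoding the growth factor midkine, was 340.4 CPM against 15.9 CPM. Of 24 genes of protein secretion 16 were lower and none higher, and of 13 of glycolysis and hypoxia 9 were lower and 1 higher. Of the cell cycle genes, 5 reached the floor in both groups and all 5 were lower, while 18 reached it in the D2 fibroblasts only. Ldha, encoding lactate dehydrogenase A, was 198 CPM against 638 CPM, and Ccl2 was 262 CPM against 1382 CPM. Of 18 cytokine and chemokine genes 8 were lower and 3 higher. Summed neutrophil and macrophage markers were also lower, at 121 and 202 CPM against 226 and 253 CPM. Of 21 enzymes of collagen modification 10 were lower and 4 higher, and the collagen-crosslinking gene Lox was 379 CPM against 651 CPM. Fmod and Col11a1 rested on 3 and 7 UMIs in the D2 fibroblasts, at 1.71 and 3.98 CPM. Of 18 dissociation response genes 14 were higher and 2 lower. The D2 cells had a lower median depth, 8653 UMIs against 16262. In summed UMIs, however, they held 1759477 over 101 cells against 14992305 over 934, which is more per cell. The part of the dissociation response and of depth in these differences was not tested.

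Against only those D7 fibroblasts that held 0 or 1 set C gene, also chosen after the data were seen, 89 of 3476 genes were at least 2-fold higher (2.56%) and 145 lower (4.17%). Fmod was 172 CPM against 12.6 CPM there, Col12a1 258 CPM against 32.7 CPM and C3 111 CPM against 910.4 CPM. Of 17 matricellular genes 12 were 1.5-fold higher and 2 lower, beside 5.59% and 7.69% of all genes. These 964 cells were shallower, with medians of 2709 and 7622 UMIs for 0 and 1 gene, and the part of depth was not tested.

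Within D7, Fmod and Postn were higher in steps with the number of set C genes a fibroblast held, while Col15a1 and Col4a1 were lower. Among gated cells of 5000 to 15000 UMIs with 0, 1, 2, 3 and 4 set C genes, Fmod was 5.32, 9.67, 31.4, 75.5 and 224 CPM. Postn was 491, 695, 1637, 2703 and 4240 CPM over the same steps. Col15a1 was 328, 318, 190, 68.2 and 6.42 CPM, and Col4a1 298, 253, 137, 47.2 and 6.42 CPM. Scx was at most 1.06 CPM with up to 2 of the genes, 5.65 CPM with 3 and 43.7 CPM with 4. Igfbp5 was 757, 895, 345, 83.2 and 7.71 CPM, and Efemp1 182, 122, 92.8, 18.6 and 6.42 CPM. Il33 was 589, 476, 470, 461 and 430.3 CPM. The median depth still differed over these steps, from 8161 to 11993 UMIs, and the steps share cells with the rule.

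**Figure D5:**
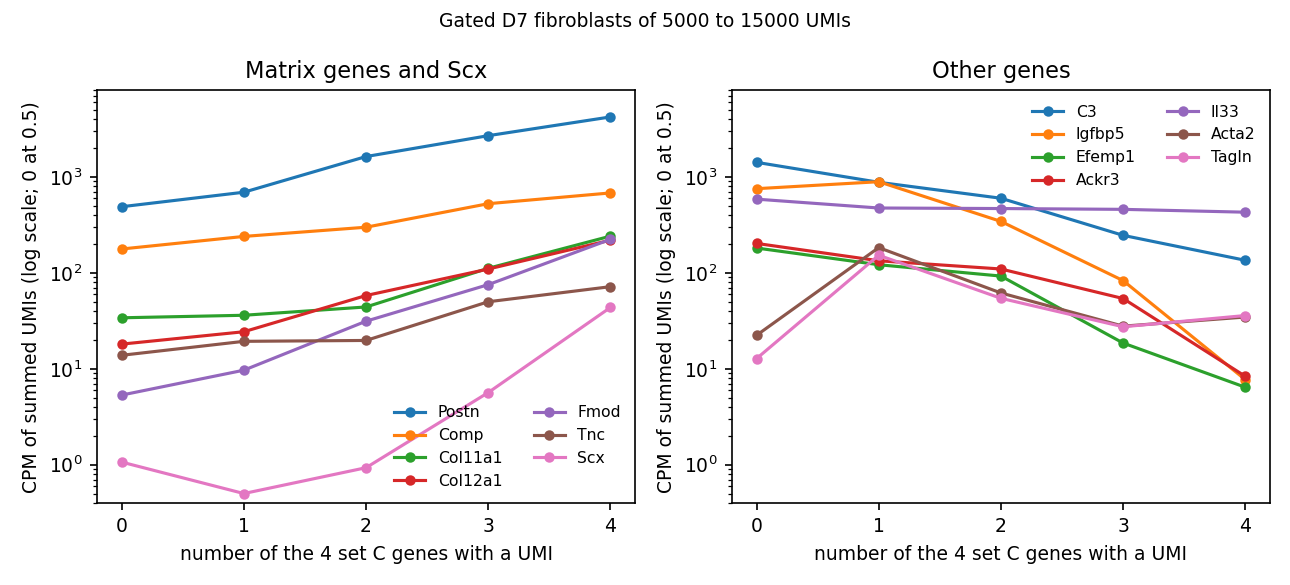
CPM of summed UMIs (log axis) in gated D7 fibroblasts of 5000 to 15000 UMIs, by the number of set C genes with a UMI. Fmod goes from 5.32 to 224 CPM and Scx is highest with 4 genes, while Igfbp5 and Efemp1 go down to 7.71 and 6.42 CPM, and Acta2 and Tagln are highest with 1 gene.

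Markers of other cell types were then read in the matrix fibroblasts. The gate asked for fibroblast genes and at most 1 UMI each of Ptprc and Pecam1. Low endothelial and lymphocyte levels are thus close to what the gate fixes. Summed over the markers, the matrix fibroblasts had 18.5 CPM of endothelial genes, 6.00 CPM of lymphocyte genes, 3.07 CPM of skeletal muscle genes and 0.934 CPM of adipocyte genes. The mural markers gave 218 CPM, against 232 CPM in the other gated D7 cells, and 25 matrix fibroblasts held at least 3 mural genes, as given above. Schwann cell markers gave 366 CPM against 432 CPM, of which Pmp22 and Scn7a made up 155 and 183 CPM, and the defining Schwann gene Sox10 had 0.133 CPM. Perineurial and mesothelial markers gave 16.6 and 0.267 CPM, and erythroid genes 338 CPM against 143 CPM. Genes that respond to cell dissociation gave 13992 CPM against 10877 CPM, and their part in the differences was not tested. Doublet calling marked 4 of the 934 cells. In all, 29 barcode sequences at most were shared by any pair of libraries, and none was a matrix fibroblast in both.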

How the data were processed

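Single-cell RNA-seq was deposited as 1 count matrix of UMIs per library (32285 genes). Per the submitters' processing notes the authors used Cell Ranger 7.2.0 and Seurat 5.0.1 with build mm10, while the file headers name Cell Ranger 7.1.0. The deposited counts were used unnormalised. The libraries held 39756684 to 100571340 UMIs in 7757 to 11690 barcodes, none under 500 UMIs. The cells, gene sets and lists were chosen with earlier results of these data known.

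UMIs were summed over the cells of a group and divided by their total (CPM). Ratios carry exact conditional binomial intervals, levels exact Poisson intervals and shares Clopper-Pearson intervals. Named genes were the 12 highest and 8 lowest ratios of CPM plus 1 (5 and 5 against sets D and E) reaching 100 CPM in the higher group and detected in 10% of its cells, leaving out genes of the rule, plus Il33, Il1rl1 and up to 5 genes per list. Gene positions came from GENCODE M21. Scrublet in scanpy 1.11.5 called doublets, which were kept. The fold limit and intervals were checked on simulated counts. The contrast of D7 with D2 cells of the rule needed 20 cells per library and was not made. The 4 set C genes, Gsn, Scx, Acan, Spp1, Gpx3 and others named beyond the ratio rule came from the lists or were chosen after their values were seen.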

Additional observations from a re-analysis of the deposited data

How the results depend on the processing

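The share of matrix fibroblasts among gated D7 fibroblasts was 34.7% with at least 2000 UMIs per barcode, 27.8% with at least 3 set C genes required and 27.7% among cells of 5000 to 15000 UMIs. The D2 share, 6.93% as reported, went from 3.33% (1 of 30 cells of 5000 to 15000 UMIs) to 8.24%. With at least 3 set C genes the Sham share was 0. The counts of genes at least 2-fold apart depended on the filter on low genes. With a floor of 20 CPM they were 41 higher and 130 lower against the other gated D7 cells, 124 and 125 against set D, 193 lower against set E, and 509 and 755 against gated Sham. With no filter they were 78 and 354, 453 and 420, 244 and 509, and 1097 and 1520. Against set E, 78 genes were higher after thinning to 2000 UMIs. Against D7 cells with 0 or 1 set C gene, an alternative chosen after seeing the data, 89 were higher and 145 lower. Leaving out barcodes with at least 3 mural genes, also chosen after seeing the data, gave 27 and 72 against the other gated D7 cells. Tagln had a log2 ratio of -0.13 with at least 3 set C genes and -0.98 among cells of 5000 to 15000 UMIs, and no other gene named by ratio turned its direction under the alternatives run. Of 1035 list medians under the alternatives, 62 changed sign, none of them past 1.5-fold before or after, while 11 passed that limit and 12 fell short of it. The cause of these shifts was not tested. The alternatives for D7 against D2 cells of the rule were not run, since D2 held 7 such cells. No paired analysis was possible because each group has 1 library and the results come from no test.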
